A study of Mus musculus with 12 samples.

Results

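The genes described here encode the acid hydrolases of the lysosome, its main membrane proteins, 2 of its regulators and the subunits of the vacuolar ATPase (V-ATPase). They were chosen by name: every symbol starting with Atp6v0 or Atp6v1, the cathepsins a, b, c, d, f, h, k, l, o, s and z, and 23 listed genes, with pseudogene symbols left out. This gave 57 of the 55491 rows of the expression tables. Of these, 22 encode V-ATPase subunits and 34 encode hydrolases, membrane proteins, granulin or regulators. Atp6v1fnb matched the naming pattern but had no read in any library and was placed in neither group. Above the filter on low counts were 48 of the 57 genes, among 13513 genes tested in all.

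PolyA RNA was sequenced from PT-22, a mouse kidney cell line labelled proximal tubule, in 12 libraries. All libraries carry the same genotype, Pax2-/-, Pax8 fl/fl, Rosa-CreERT2: Pax2 is absent throughout, Pax8 is flanked by loxP sites, and a tamoxifen-activated Cre recombinase is expressed from the broadly active Rosa locus. The 3 control libraries were untreated, and 3 libraries each were taken at days 2, 6 and 12 after 4-hydroxytamoxifen, given at 1 µM for 2 days to remove PAX8, a transcription factor of the kidney epithelium. The labels do not say whether days count from the start or the end of that treatment. The labels name 1 line and say neither whether the replicate libraries come from separate cultures nor that any vehicle-treated or later untreated culture was sampled, so loss of PAX8, the drug, Cre activity and time in culture cannot be told apart.

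Lysosomes degrade proteins, glycans and lipids with hydrolases that work at acid pH. The V-ATPase supplies the acid: its cytosolic V1 sector splits ATP and its membrane V0 sector carries protons across. In kidney proximal tubule cells the system handles protein taken up from the filtrate, whereas the a4, B1, C2, d2 and G3 subunits are known from acid-secreting intercalated cells, osteoclasts and other specialised cells. Many lysosomal genes share a promoter element, called CLEAR, that is bound by TFEB and its relatives, which move to the nucleus when mTORC1 activity at the lysosome is low.

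Library totals ran from 4326667 reads (day 2, replicate B) to 11654959 reads (day 2, replicate C). Cre was present in all libraries, at 45.98 to 55.9 TPM (transcript abundance scaled to library and transcript length). Pax8 RNA was not lower after treatment, at 169.35 to 172.18 TPM in controls, 279.88 to 320.74 at day 2, 172.48 to 221.02 at day 6 and 173.58 to 206.98 at day 12. A total over the whole gene also counts exons outside the floxed stretch and therefore does not check its removal. Of 14 proximal tubule markers, 5 had no read in any library (Kap, Slc13a1, Slc34a1, Slc5a12 and Slc5a2), 8 were tested, and 6 of those were lower and 1 higher than control at each day. Their summed level ran from 257.77 to 276.02 TPM in controls and from 636.63 to 811.89 TPM at day 6. Aqp1, a water channel, held 104.83 to 110.9 TPM of it in controls and 600.75 to 778.21 TPM at day 6. Of 14 leukocyte and macrophage markers, C1qa, C1qb, Cd3e, Itgam and Tyrobp had no read in any library, and the summed level was 22.56 to 27.37 TPM in controls against 29.94 to 31.01 at day 6 and 25.64 to 27.33 at day 12. Most of it was Csf1r, at 9.07 to 11.75 TPM in controls and 3.32 to 4.83 at day 12, and Cd14, at 11.79 to 14.98 and 18.04 to 21.25. Lyz2 was at 0.15 to 1 TPM in controls and 2.81 to 4.48 at day 6. Of the 3 tested, 1 was higher at day 6, and 2 were higher and 1 lower at day 12. Of 8 fibroblast markers, Col3a1 and Pdgfra had no read in any library, and the sum was 0.67 to 1.06 TPM in controls, 5.35 to 7.34 at day 6 and 22.18 to 25.63 at day 12. At day 12 Dcn held 16.81 to 19.65 TPM of it and Postn 3.94 to 4.63, while Col1a1 held 0.69 to 1.64. Of 8 osteoclast markers, Calcr, Dcstamp and Ocstamp had no read in any library, and the sum, mostly Itgb3, was 11.96 to 13.16 TPM in controls and 57.76 to 58.49 at day 6. The part of these shifts in the results below was not tested.

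The lysosomal genes split along functional lines by day 6. Hydrolases, lysosomal membrane proteins and granulin were mostly higher than control at days 6 and 12, whereas most V-ATPase subunits that passed the test were lower. Among members with a mean of at least 5 CPM (reads scaled to library size), Hexa, Ctsf, Gaa, Lipa, Arsa, Grn and Ctsb were among the larger rises, and Atp6v0a4 and Atp6v1c1 were the larger falls among the subunits. The rare Ctso and Atp6v1c2 had larger fitted values, given further on. Of the 30 tested hydrolase-group genes, 21 rose and 4 fell at day 6, and 19 rose and 6 fell at day 12. Of the 18 tested V-ATPase subunits, 2 rose and 11 fell at day 6, and 2 rose and 10 fell at day 12. At day 2, 3 rose and 5 fell in the hydrolase group, and 1 rose and 4 fell among the subunits. Changes were of moderate size: among calls at day 6, 8 rises and 3 falls reached 1.5-fold. The share of all tested genes that reached it was not taken. Levels below are in CPM, the read count scaled to library size, which compares libraries for a gene, or in TPM, which also compares genes.

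Over both groups, 4 tested members were higher (8.33%) and 9 lower (18.75%) at day 2, where 10.3% of all tested genes were higher and 10.9% lower. Calls are from the edgeR quasi-likelihood test at Benjamini-Hochberg adjusted p below 0.05 over all tested genes. At day 6 there were 23 higher (47.9%) and 15 lower (31.25%), against 26.7% and 27.6% of all genes, so the share lower was near that of all genes. At day 12 there were 21 higher (43.75%) and 16 lower (33.3%), against 26.1% and 26.6%. The median log2 fold change of the hydrolase group was -0.03 at day 2, 0.27 at day 6 and 0.27 at day 12. For the V-ATPase subunits the medians were -0.09, -0.19 and -0.22, and over all tested genes they lay between -0.01 and 0.00. These p-values measure only the spread between the libraries, which may be technical. In bulk RNA, fewer cells expressing a gene and less of its RNA per cell cannot be told apart.

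**Figure D1:**
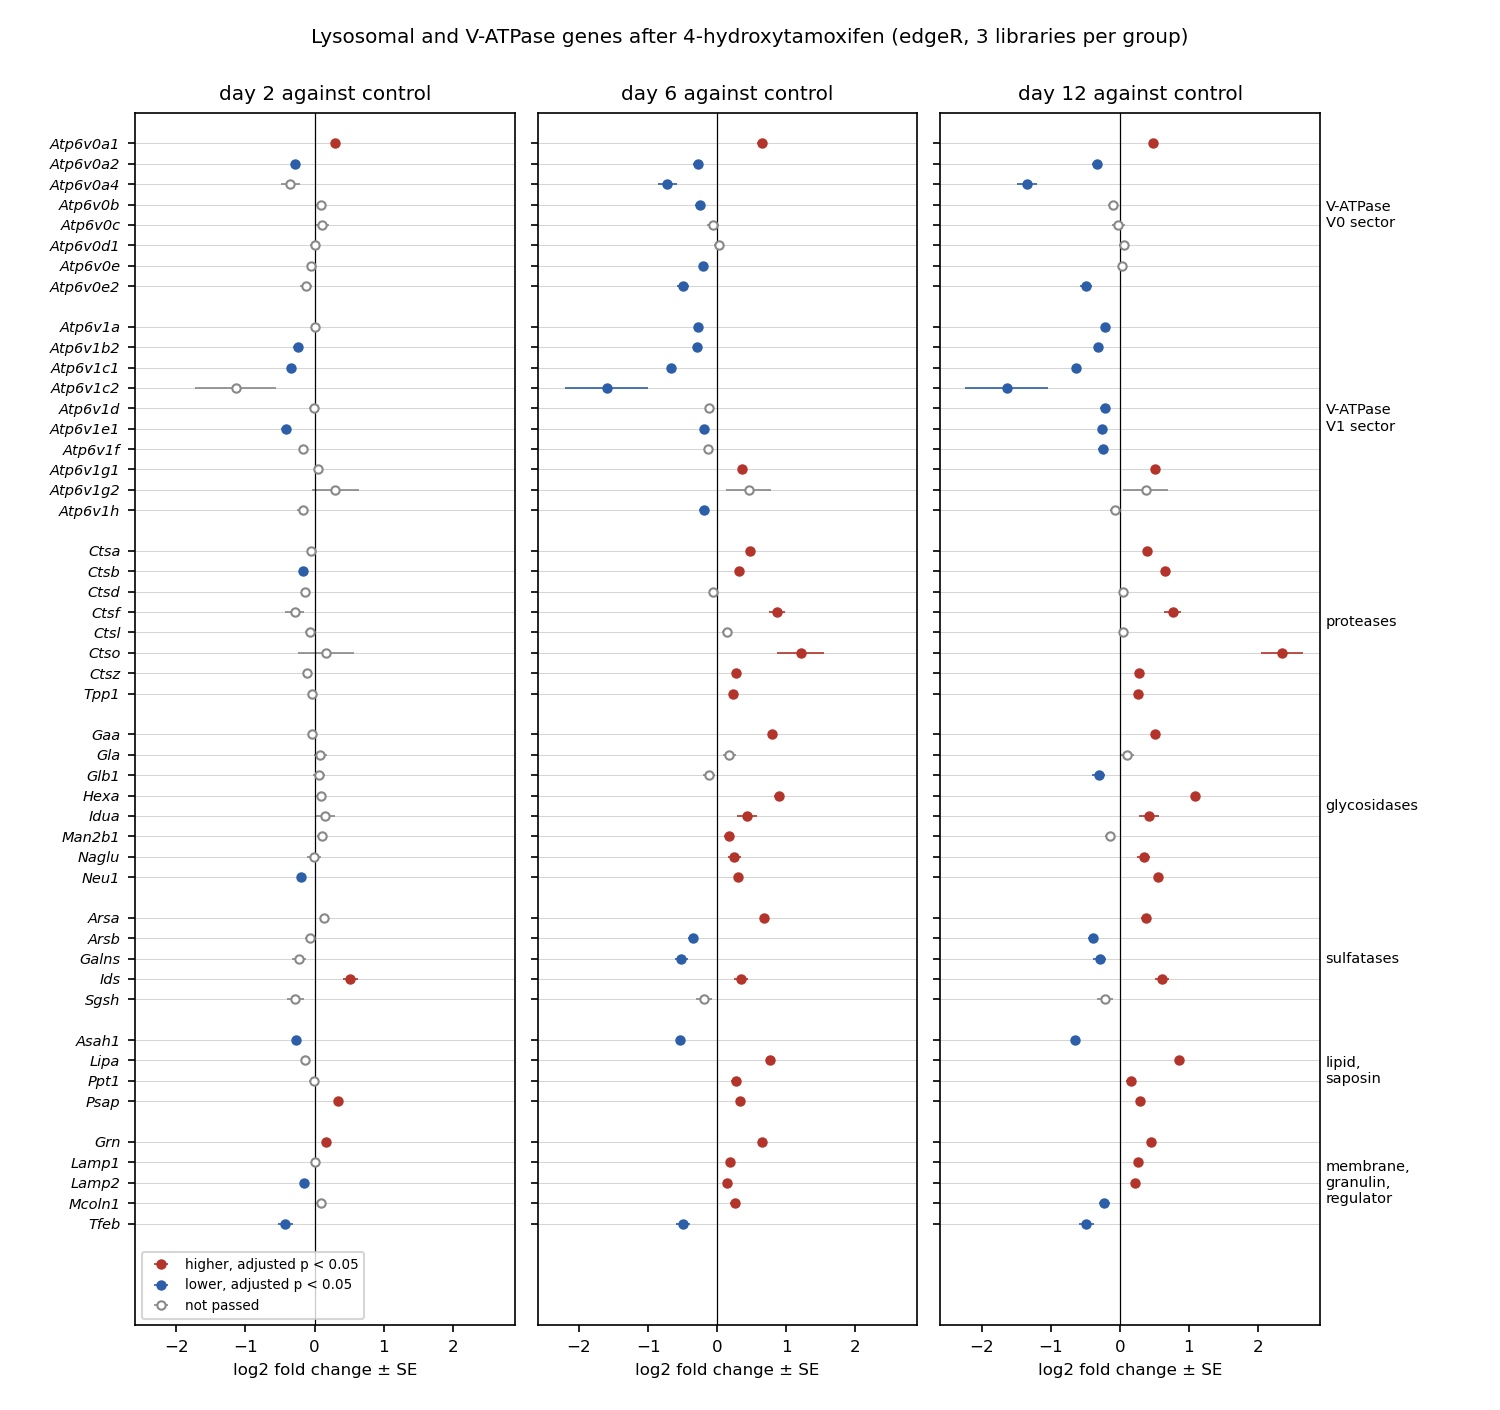
Log2 fold change against control with its standard error (x axis) for the 48 tested genes (y axis, grouped by role) at days 2, 6 and 12, from edgeR with 3 libraries per group. Filled red and blue points passed adjusted p below 0.05; at days 6 and 12 most proteases and glycosidases lie to the right of zero and most V-ATPase subunits to the left.

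The number of V-ATPase falls depended on the scale. The counts above come from read counts, and the authors' TPM values, which also use transcript length, gave fewer falls. In limma on log2(TPM + 1), 3 of the 11 subunits called lower at day 6 still passed (Atp6v0a4, Atp6v0e2 and Atp6v1c1), and 6 of the 10 at day 12 (with Atp6v1a, Atp6v1b2 and Atp6v1f added). The hydrolase-group rises held on that scale for 19 of 21 genes at day 6 and 18 of 19 at day 12. Over all members TPM gave 22 higher and 7 lower at day 6, 20 higher and 10 lower at day 12, and 2 higher and 5 lower at day 2. The share of all genes called on TPM was not taken, so these counts have no background to stand against. On that scale the median of all genes was itself shifted, by 0.09 for day 6 and 0.04 for day 12 against control and by 0.12 for day 6 against day 2.

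The promoters of 5 members are shown because they carry the 8-base palindrome TCACGTGA, the core of the CLEAR element, next to different outcomes. On counts, Ctsa and Mcoln1 were higher at day 6, Ctsd did not pass at any day, and Atp6v1a and Atp6v0e were lower at day 6. On TPM the 2 rises held and the 2 falls did not pass. Each window holds 250 bases before and 50 after a RefSeq start site in GRCm38.p6, printed 5′ to 3′ on the gene's strand, with the palindrome in capitals.
Ctsa promoter, chr2:164833523-164833822, plus strand: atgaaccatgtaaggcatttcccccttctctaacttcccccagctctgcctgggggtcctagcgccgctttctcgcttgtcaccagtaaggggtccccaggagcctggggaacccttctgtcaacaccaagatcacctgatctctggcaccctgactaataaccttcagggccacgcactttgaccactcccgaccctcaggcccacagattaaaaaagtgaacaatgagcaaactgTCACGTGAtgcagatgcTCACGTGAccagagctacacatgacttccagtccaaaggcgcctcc
Mcoln1 promoter, chr8:3500269-3500568, plus strand: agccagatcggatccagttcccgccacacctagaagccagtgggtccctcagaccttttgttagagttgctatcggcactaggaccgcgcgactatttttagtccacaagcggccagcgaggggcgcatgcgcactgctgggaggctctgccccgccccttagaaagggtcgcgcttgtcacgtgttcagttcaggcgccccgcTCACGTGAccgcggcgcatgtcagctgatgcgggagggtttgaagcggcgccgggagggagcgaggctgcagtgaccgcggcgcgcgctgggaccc
Ctsd promoter, chr7:142387778-142388077, minus strand: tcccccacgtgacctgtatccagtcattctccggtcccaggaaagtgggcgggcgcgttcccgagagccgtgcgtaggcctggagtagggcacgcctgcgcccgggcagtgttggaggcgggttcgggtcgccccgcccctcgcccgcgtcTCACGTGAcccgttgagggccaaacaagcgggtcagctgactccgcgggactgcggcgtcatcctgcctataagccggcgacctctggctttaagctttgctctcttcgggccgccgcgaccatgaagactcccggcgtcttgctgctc
Atp6v1a promoter, chr16:44139210-44139509, minus strand: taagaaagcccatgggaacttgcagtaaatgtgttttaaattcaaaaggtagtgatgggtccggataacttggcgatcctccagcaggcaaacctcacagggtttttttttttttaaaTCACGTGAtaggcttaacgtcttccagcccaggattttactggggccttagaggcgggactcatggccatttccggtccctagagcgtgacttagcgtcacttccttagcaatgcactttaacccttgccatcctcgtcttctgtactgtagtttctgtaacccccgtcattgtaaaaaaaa
Atp6v0e promoter, chr17:26676146-26676445, plus strand: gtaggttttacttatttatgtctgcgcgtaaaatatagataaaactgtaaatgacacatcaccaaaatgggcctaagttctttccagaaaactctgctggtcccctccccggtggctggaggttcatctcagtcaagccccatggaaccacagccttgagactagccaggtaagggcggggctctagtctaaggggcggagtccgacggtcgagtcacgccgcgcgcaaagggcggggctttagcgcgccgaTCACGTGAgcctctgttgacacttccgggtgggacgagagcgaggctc

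The palindrome began at -13 and at 4 from the start site in Ctsa, which holds 2 copies, at -46 in Mcoln1, at -99 in Ctsd, at -132 in Atp6v1a and at 2 in Atp6v0e. RefSeq windows were matched for 40 of the 48 tested members, some with more than 1 start site; a gene counts once where any of its windows holds the word. TCACGTGA, which reads the same on both strands, was found in 7 of the 40 genes (17.5%), against 304 of 27025 genes with a window (1.12%). The other carriers were Gla and Atp6v0d1, neither of which passed at day 6. The shorter CACGTG, which lies inside the longer word, was found in 16 of 40 members (40%) and in 2187 of 27025 genes (8.09%). Among members higher at day 6 on counts, 2 of 21 held the long word, and among those lower, 2 of 9. The short word was held by 7 of 21 and 3 of 9, 33.3% of each. A match is a run of letters and no measure of binding.

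Within the V0 sector, the isoforms of the a subunit, which anchors the pump in its membrane and steers it to a compartment, moved in different directions. Atp6v0a4 (ENSMUSG00000038600, chromosome 6, 38048483 to 38124586, minus strand; positions here and below are on GRCm38), the a4 isoform of intercalated cells and proximal tubule, measured 15.6, 14.8 and 18.1 CPM in control libraries A, B and C, 11.3, 13.6 and 13.3 CPM at day 2, 10.7, 9.39 and 9.20 CPM at day 6, and 6.53, 6.40 and 6.16 CPM at day 12. Every treated library lay below every control, and the day 12 libraries were the lowest of all. Atp6v0a4 differed from control by -0.35 ± 0.14 at day 2, -0.72 ± 0.14 at day 6 and -1.35 ± 0.14 at day 12 (edgeR adjusted p = 0.0603, 2.87e-05 and 7.82e-10), on the log2 scale with its standard error; p-values here and below follow the order of the days. On log2(TPM + 1) the falls were -0.52 at day 6 and -1.02 at day 12. An uncharacterised gene, D630045J12Rik, shares exon sequence with Atp6v0a4 on the same strand and held 7378 reads in all against 1147. It differed from control by -0.21, -0.05 and -0.45 at days 2, 6 and 12, so the Atp6v0a4 values are uncertain.

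Atp6v0a1, the broadly expressed a1 isoform, measured 121, 126 and 126 CPM in control libraries A, B and C, 159.7, 157 and 144 CPM at day 2, 185, 194 and 205 CPM at day 6, and 181, 174 and 166 CPM at day 12. The treated libraries did not overlap the controls, and day 6 held the highest values. Atp6v0a1 differed from control by 0.30 ± 0.06 at day 2, 0.64 ± 0.06 at day 6 and 0.48 ± 0.06 at day 12 (edgeR adjusted p = 0.000331, 2.98e-11 and 2.04e-08). The day 2 and day 12 rises did not pass on TPM, where the values were -0.04 and 0.16, while day 6 held at 0.61. Atp6v0a2, the a2 isoform known from the Golgi and early endosomes, measured 86.9, 87.6 and 87.0 CPM in control libraries A, B and C, 73.5, 66.4 and 73.8 CPM at day 2, 71.0, 72.0 and 71.9 CPM at day 6, and 70.2, 65.9 and 71.0 CPM at day 12. Its treated libraries all lay below the controls, in a narrow band that was similar across days. Atp6v0a2 differed from control by -0.28 ± 0.07 at day 2, -0.28 ± 0.07 at day 6 and -0.34 ± 0.07 at day 12 (edgeR adjusted p = 0.00177, 0.000423 and 5.04e-05), and none of these falls passed on TPM (-0.29, -0.09 and -0.28).

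**Figure D2:**
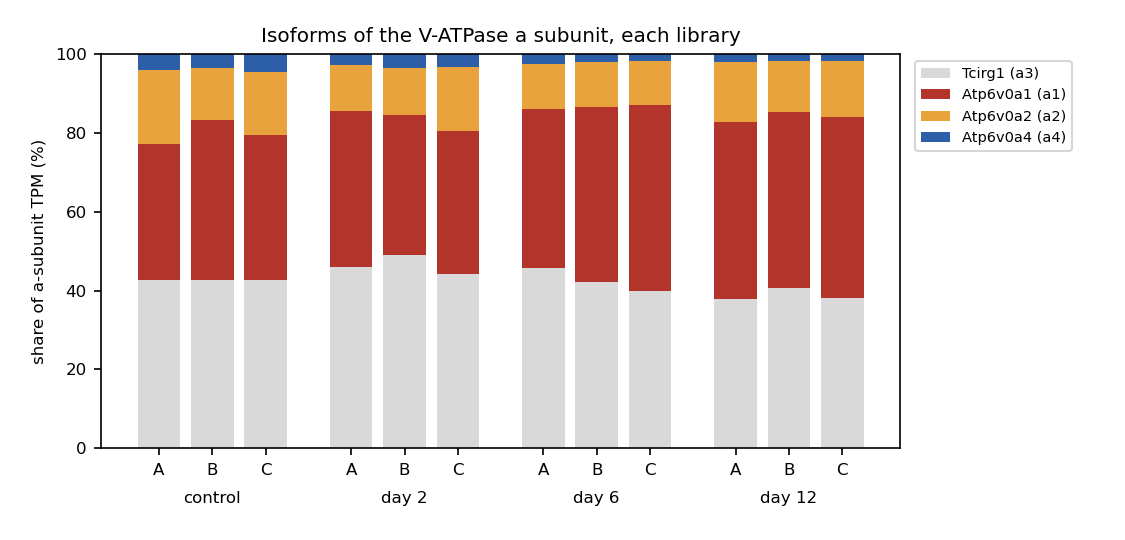
Share of the summed TPM of the 4 V-ATPase a-subunit genes (y axis, percent) in each library (x axis, replicates A to C of each group), with Tcirg1 (a3) at the bottom, then Atp6v0a1, Atp6v0a2 and Atp6v0a4. The top segment, Atp6v0a4, narrows from 3.56 to 4.5% in controls to 1.76 to 2.13% at day 12.

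Set side by side per length in TPM, a3 (Tcirg1, no member by name) and a1 made up most of the a-subunit RNA. Atp6v0a1 held 37.3 ± 3.16% (SD, n = 3) of the a-subunit TPM in controls, 37.2 ± 2.15% on day 2, 44.0 ± 3.46% on day 6 and 45.1 ± 0.73% on day 12. The day 6 shares overlapped the controls, with day 6 A at 40.3% and control B at 40.7%. Tcirg1 held 42.6 ± 0.03% in controls, 46.3 ± 2.47% at day 2, 42.6 ± 2.91% at day 6 and 38.9 ± 1.54% at day 12. The share of Atp6v0a4 was 4.07 ± 0.48% in controls, 3.16 ± 0.39% at day 2, 2.07 ± 0.36% at day 6 and 1.90 ± 0.20% at day 12. The plot of a-subunit shares by library shows these bands. Markers of intercalated cells, which use a4, were at 8.93 to 14.68 TPM in sum in controls and 0.04 to 0.13 at day 12. Aqp6 alone held 7.24 to 7.65 TPM of it in controls. All 3 tested of the 10 were lower at days 6 and 12, and the defining factor Foxi1 and also Dmrt2 had no read in any library. Whether any such cells were present, or had a part in the a4 values, was not tested.

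The e subunit, a small hydrophobic V0 protein, is encoded by Atp6v0e and Atp6v0e2. Atp6v0e2 measured 50.5, 50.9 and 43.8 CPM in control libraries A, B and C, 45.8, 47.2 and 41.2 CPM at day 2, 33.6, 36.1 and 33.2 CPM at day 6, and 35.2, 35.0 and 32.8 CPM at day 12. Day 6 and day 12 libraries lay below all controls, and day 2 overlapped them. Atp6v0e2 differed from control by -0.12 ± 0.08 at day 2, -0.49 ± 0.08 at day 6 and -0.49 ± 0.08 at day 12 (edgeR adjusted p = 0.338, 7.04e-06 and 6.43e-06). Atp6v0e measured 106, 106 and 99.8 CPM in control libraries A, B and C, 99.4, 113 and 92.7 CPM at day 2, 89.0, 93.3 and 89.1 CPM at day 6, and 108, 109.5 and 101 CPM at day 12. Its day 6 libraries were below the controls, and those of day 12 overlapped them. Atp6v0e differed from control by -0.05 ± 0.07 at day 2, -0.20 ± 0.07 at day 6 and 0.04 ± 0.07 at day 12 (edgeR adjusted p = 0.705, 0.0122 and 0.681). Its day 6 call ended without control A or day 6 C (adjusted p up to 0.0574 in edgeR) and on TPM (-0.16). In TPM, Atp6v0e2 made up 14.6 ± 0.46% of the pair in controls and 10.7 ± 0.11% at day 12 (SD, n = 3).

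Among the proton-carrying ring subunits and the d subunit, only Atp6v0b passed, at day 6. Atp6v0b, the c″ ring subunit, measured 112, 129 and 119 CPM in control libraries A, B and C, 124, 145 and 120.2 CPM at day 2, 109, 96.4 and 97.9 CPM at day 6, and 110.4, 116 and 110.4 CPM at day 12. Only day 6 lay wholly below the controls, and Atp6v0b differed from control by 0.10 ± 0.07 at day 2, -0.25 ± 0.07 at day 6 and -0.10 ± 0.07 at day 12 (edgeR adjusted p = 0.387, 0.00332 and 0.257). That fall did not pass on TPM (-0.13). Atp6v0c, the main ring subunit, and Atp6v0d1, which links the ring to V1, passed at no day, with log2 fold changes from -0.06 to 0.11 and from 0.01 to 0.06. For Atp6v0c, reads of the near-identical pseudogene Atp6v0c-ps2, which held 6222 reads over the 12 libraries, could be exchanged with it in counting, so its value is uncertain.

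In the V1 sector, the largest fall at a well-measured gene was that of Atp6v1c1 (ENSMUSG00000022295, chromosome 15, 38661933 to 38692446, plus strand), the C subunit that clamps V1 to V0 and is released when the pump disassembles. It measured 289.7, 278 and 276 CPM in control libraries A, B and C, 215, 232 and 218 CPM at day 2, 182, 183 and 164 CPM at day 6, and 177, 186 and 183 CPM at day 12. Each treated group lay below all controls, and days 6 and 12 lay below day 2. Atp6v1c1 differed from control by -0.35 ± 0.06 at day 2, -0.67 ± 0.06 at day 6 and -0.63 ± 0.06 at day 12 (edgeR adjusted p = 9.82e-06, 2.21e-12 and 9.5e-12). The day 2 fall did not pass on TPM (-0.22). Atp6v1e1, a subunit of the peripheral stalks, measured 151, 159 and 154 CPM in control libraries A, B and C, 108, 106 and 130.5 CPM at day 2, 135, 135 and 137 CPM at day 6, and 126, 128 and 135 CPM at day 12. It was lowest at day 2, and no treated library reached a control value. Atp6v1e1 differed from control by -0.41 ± 0.07 at day 2, -0.19 ± 0.06 at day 6 and -0.25 ± 0.06 at day 12 (edgeR adjusted p = 7.46e-06, 0.0127 and 0.00131), and only the day 2 fall held on TPM (-0.11 at day 6 and -0.22 at day 12 there).

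The catalytic head of V1 is made of A and B subunits. Atp6v1b2, the ubiquitous B2, measured 137, 133 and 134 CPM in control libraries A, B and C, 108, 113 and 120.3 CPM at day 2, 106, 118 and 109 CPM at day 6, and 103, 109 and 113 CPM at day 12. All treated libraries lay below all controls. Atp6v1b2 differed from control by -0.24 ± 0.06 at day 2, -0.28 ± 0.06 at day 6 and -0.32 ± 0.06 at day 12 (edgeR adjusted p = 0.00395, 0.000195 and 5.13e-05), and on TPM the day 12 fall held while those of days 2 and 6 did not pass (-0.26 and -0.17). Atp6v1a, the ATP-splitting A subunit, was at 0.00 at day 2, not past the test, and fell at the later days, at -0.27 ± 0.05 (edgeR adjusted p = 7.05e-05) at day 6 and -0.22 ± 0.05 (edgeR adjusted p = 0.00108) at day 12. Its level was 279.7 to 309.8 CPM at day 6, below the 343 to 374 CPM of the controls. On TPM the day 6 fall was -0.23 and did not pass.

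Atp6v1g1, the common G subunit of the peripheral stalk, was the V1 subunit that rose. Its level was 141 to 156 CPM in controls, 177 to 206 CPM at day 6 and 205 to 218 CPM at day 12. Atp6v1g1 differed from control by 0.06 ± 0.06 at day 2, 0.36 ± 0.06 at day 6 and 0.52 ± 0.06 at day 12 (edgeR adjusted p = 0.62, 9.59e-06 and 1.23e-08), with no overlap between controls and days 6 or 12. Among the rest, Atp6v1d and Atp6v1f, parts of the rotor, passed only at day 12 (-0.22 and -0.25), and Atp6v1h, a regulatory subunit, only at day 6 (-0.19). The Atp6v1d call ended without control B (edgeR adjusted p = 0.0572) and on TPM. The Atp6v1h call ended when control A, or day 6 A or C, was left out (edgeR adjusted p up to 0.255), in DESeq2, without the filter and on TPM.

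Subunit isoforms of specialised cells were at or near zero. Atp6v1b1 (B1), Atp6v1g3 (G3) and Atp6v0d2 (d2) had no read in any library, which allows up to 3 reads in each, for counting error only. Atp6v1e2 had at most 1 read in a library and was not tested. Atp6v1c2 (C2) had 1 to 15 reads per library and passed as lower at days 6 and 12 (-1.60 ± 0.60 and -1.64 ± 0.60), but the day 6 call ended without control A, control C or day 6 A, and the day 12 call without control A or C, or day 12 A or B (edgeR adjusted p up to 0.154 and 0.104). Neither passed in DESeq2 or on TPM. Pdia6 shares exon sequence with Atp6v1c2 on the other strand, with 24460 reads in all against 68, and had log2 fold changes of -0.37 and -0.12 at these days, so the Atp6v1c2 values are uncertain. Atp6v1g2 (G2), with 11 to 25 reads per library, passed at no day and shares exon sequence with Nfkbil1.

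Among the proteases, 6 of the 8 tested (75%) rose at day 6 and at day 12, and none fell at either day. Of all genes, 26.7% rose and 27.6% fell at day 6, and 26.1% and 26.6% at day 12. Ctsf, cathepsin F, a papain-type cysteine protease, measured 13.2, 14.7 and 14.5 CPM in control libraries A, B and C, 11.4, 11.5 and 11.8 CPM at day 2, 30.6, 21.9 and 24.4 CPM at day 6, and 24.3, 24.9 and 23.1 CPM at day 12. Day 2 lay just below the controls and days 6 and 12 lay well above all of them, with day 6 A the highest library. Ctsf differed from control by -0.29 ± 0.14 at day 2, 0.86 ± 0.12 at day 6 and 0.77 ± 0.12 at day 12 (edgeR adjusted p = 0.146, 1.72e-07 and 1.58e-06). Ctsb, cathepsin B, one of the most abundant lysosomal cysteine proteases, measured 429, 444 and 437 CPM in control libraries A, B and C, 412, 388 and 364 CPM at day 2, 542, 561 and 536 CPM at day 6, and 708, 695 and 659 CPM at day 12. The groups were ordered without overlap as day 2, control, day 6 and day 12. Ctsb differed from control by -0.17 ± 0.05 at day 2, 0.32 ± 0.05 at day 6 and 0.65 ± 0.05 at day 12 (edgeR adjusted p = 0.0191, 3.97e-06 and 1.06e-12). The day 2 fall ended without control B, control C or day 2 C (edgeR adjusted p up to 0.118) and with those 2 groups alone. Fdft1 shares exon sequence with Ctsb, whose counts are uncertain to that extent because the sources do not say whether counting used strand, and Fdft1 itself had log2 fold changes of -0.84 and -1.11 at days 6 and 12.

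Ctsa, the serine carboxypeptidase that also protects beta-galactosidase and neuraminidase in a complex, was at 595 to 657 CPM in controls, 872 to 888 CPM at day 6 and 791 to 871 CPM at day 12, with no overlap. Ctsa differed from control by -0.05 ± 0.05 at day 2, 0.48 ± 0.05 at day 6 and 0.39 ± 0.05 at day 12 (edgeR adjusted p = 0.552, 1.67e-09 and 1.35e-07). Pltp shares exon sequence with Ctsa on the other strand and holds 34.1% as many reads. It had log2 fold changes of 0.94 and 0.60 at days 6 and 12, so the Ctsa values are uncertain to that extent. Ctsz, cathepsin Z, changed by 0.27 at day 6 and 0.28 at day 12, and Tpp1, tripeptidyl peptidase 1, by 0.23 and 0.26; all these passed. Nelfcd, which shares exon sequence with Ctsz on the other strand and holds 32.9% as many reads, fell by 0.31 and 0.43 at those days. The Ctsz values are also uncertain to that extent. Ctso, cathepsin O, was rare at 4 to 58 reads per library and had the largest fitted rises of all members, 1.21 ± 0.34 (edgeR adjusted p = 0.00315) at day 6 and 2.35 ± 0.30 (edgeR adjusted p = 4.26e-08) at day 12.

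The proteases highest in TPM in controls, Ctsd and Ctsl, passed at no day. Ctsd, cathepsin D, the main aspartic protease of the lysosome, measured 793, 845 and 832 CPM in control libraries A, B and C, 741, 759 and 748 CPM at day 2, 824, 765 and 789 CPM at day 6, and 850.5, 847 and 864 CPM at day 12. Day 2 lay below the controls, day 6 overlapped them and day 12 lay just above them. Ctsd differed from control by -0.14 ± 0.05 at day 2, -0.05 ± 0.05 at day 6 and 0.05 ± 0.05 at day 12 (edgeR adjusted p = 0.0515, 0.372 and 0.399), and the day 2 value passed in DESeq2 and with library totals alone. Ctsl, cathepsin L, measured 598, 592 and 602 CPM in control libraries A, B and C, 626, 479.6 and 594 CPM at day 2, 704, 652 and 621 CPM at day 6, and 596, 621 and 641 CPM at day 12. Day 6 lay above the controls, and the day 2 group was widened by its library B. Ctsl differed from control by -0.07 ± 0.07 at day 2, 0.14 ± 0.07 at day 6 and 0.05 ± 0.07 at day 12 (edgeR adjusted p = 0.535, 0.088 and 0.555), and the day 6 value passed without the filter and with those 2 groups alone. The leukocyte protease Ctss had no read in any library, and Ctsc, Ctsh and Ctsk, with at most 3, 6 and 8 reads in a library, were below the filter.

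**Figure D3:**
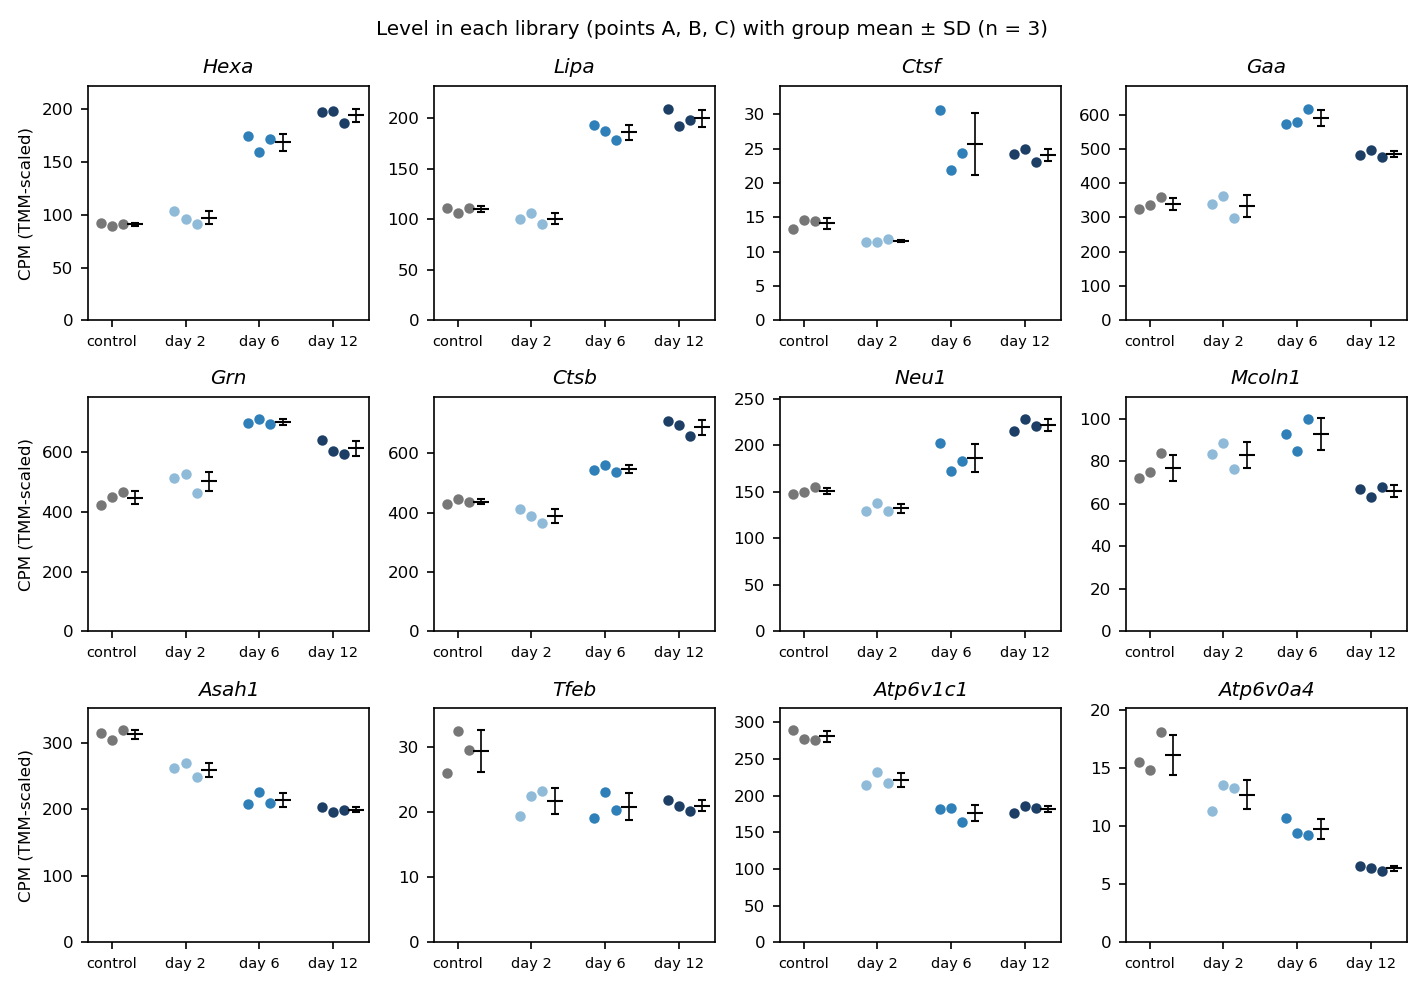
Level in CPM (read count scaled to library size with TMM factors, y axis) of 12 members in the control, day 2, day 6 and day 12 libraries (x axis); points are libraries A, B and C from left to right, and the bar beside them is the mean ± SD (n = 3). Hexa, Lipa, Ctsf, Gaa, Grn, Ctsb and Neu1 are higher at days 6 and 12 than in any control, Asah1, Tfeb, Atp6v1c1 and Atp6v0a4 are lower, and Mcoln1 falls from day 6 to day 12.

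Glycosidases cut sugars from glycoproteins, glycolipids and glycogen. Of 8 tested, 6 rose (75%) at day 6, and 5 rose (62.5%) and 1 fell (12.5%) at day 12. Of all genes, 26.7% rose at day 6, and 26.1% rose and 26.6% fell at day 12. Hexa (ENSMUSG00000025232, chromosome 9, 59539540 to 59565109, plus strand), the alpha chain of beta-hexosaminidase, which degrades GM2 ganglioside, measured 92.2, 89.8 and 90.9 CPM in control libraries A, B and C, 104, 96.1 and 91.5 CPM at day 2, 175, 159 and 171 CPM at day 6, and 197, 198 and 187 CPM at day 12. The controls spanned a narrow range, day 2 overlapped it, and days 6 and 12 lay far above it. Hexa differed from control by 0.09 ± 0.06 at day 2, 0.89 ± 0.06 at day 6 and 1.09 ± 0.06 at day 12 (edgeR adjusted p = 0.357, 1.23e-14 and 3.09e-17), a 1.85-fold and a 2.13-fold rise at the later days. Gaa, the acid alpha-glucosidase of glycogen breakdown, measured 325, 336 and 359 CPM in control libraries A, B and C, 339, 363 and 298 CPM at day 2, 573, 579 and 617 CPM at day 6, and 482, 495 and 477 CPM at day 12. Days 6 and 12 lay above all controls, with day 6 the highest. Gaa differed from control by -0.03 ± 0.06 at day 2, 0.79 ± 0.06 at day 6 and 0.51 ± 0.06 at day 12 (edgeR adjusted p = 0.763, 1.52e-13 and 5.15e-09).

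Neu1, the lysosomal sialidase, measured 148, 149.8 and 155 CPM in control libraries A, B and C, 129, 138 and 129 CPM at day 2, 202, 173 and 183 CPM at day 6, and 215, 228 and 221 CPM at day 12. Day 2 lay below all controls, day 6 above them and day 12 above day 6. Neu1 differed from control by -0.20 ± 0.06 at day 2, 0.30 ± 0.06 at day 6 and 0.55 ± 0.06 at day 12 (edgeR adjusted p = 0.0193, 5.67e-05 and 7.98e-10). The day 2 fall ended when control C, or day 2 A or C, was left out (edgeR adjusted p up to 0.091) and on TPM (-0.22). Man2b1, the lysosomal alpha-mannosidase, measured 93.5, 84.7 and 101 CPM in control libraries A, B and C, 104, 102 and 96.2 CPM at day 2, 109.9, 107 and 97.5 CPM at day 6, and 86.8, 85.9 and 81.0 CPM at day 12. Its groups overlapped the controls at all 3 days. Man2b1 differed from control by 0.10 ± 0.07 at day 2, 0.17 ± 0.07 at day 6 and -0.14 ± 0.07 at day 12 (edgeR adjusted p = 0.344, 0.034 and 0.0771), and the day 6 rise ended without control B, day 6 A or day 6 B (edgeR adjusted p up to 0.216) and on TPM, where it was 0.26.

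Idua and Naglu degrade heparan sulfate, Gla removes galactose from globotriaosylceramide, and Glb1 is the beta-galactosidase used to stain senescent cells. Idua rose at days 6 and 12 by 0.43 and 0.43 and Naglu by 0.24 and 0.35. The Idua calls ended without day 6 C (day 6) and without control C (day 12), at edgeR adjusted p of 0.0533 and 0.0535. The Naglu day 6 call ended without control A, day 6 A or day 6 B (edgeR adjusted p up to 0.123), in DESeq2 and on TPM. Glb1 differed from control by 0.06 ± 0.09 at day 2, -0.12 ± 0.09 at day 6 and -0.31 ± 0.09 at day 12 (edgeR adjusted p = 0.702, 0.23 and 0.0036), a fall at day 12 only. Gla passed at no day on counts, with values from 0.08 to 0.18, and passed on TPM at days 6 and 12 (0.33 and 0.37). Dgkq shares exon sequence with Idua on the other strand, with 1724 reads in all against 1273, and changed by 0.34 at day 6 and -0.10 at day 12. Tmppe shares exon sequence with Glb1 on the same strand, holds 23.5% as many reads, and changed by -0.13 at day 12. The Idua and Glb1 values are uncertain to that extent.

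Sulfatases remove sulfate from glycosaminoglycans and sulfatides. Of 5 tested, 2 rose and 2 fell (40% and 40%) at day 6, and again at day 12. All genes stood at 26.7% and 27.6% at day 6 and 26.1% and 26.6% at day 12. With 5 genes this is read as no result about the sulfatases. Arsa, which degrades sulfatide, measured 80.9, 82.5 and 80.3 CPM in control libraries A, B and C, 90.6, 101 and 81.1 CPM at day 2, 131, 129 and 130.2 CPM at day 6, and 106, 105 and 105 CPM at day 12. Day 6 and day 12 lay above the controls, with day 6 the higher. Arsa differed from control by 0.14 ± 0.07 at day 2, 0.68 ± 0.06 at day 6 and 0.37 ± 0.07 at day 12 (edgeR adjusted p = 0.148, 5.68e-11 and 1.07e-05). Ids, the iduronate sulfatase, measured 85.7, 78.2 and 78.1 CPM in control libraries A, B and C, 108, 139 and 105 CPM at day 2, 98.5, 114 and 94.8 CPM at day 6, and 136, 126 and 109 CPM at day 12. All treated libraries lay above all controls, with day 2 B the highest. Ids differed from control by 0.52 ± 0.11 at day 2, 0.35 ± 0.10 at day 6 and 0.61 ± 0.10 at day 12 (edgeR adjusted p = 0.00178, 0.0109 and 9.81e-05) and was the member with the largest fitted rise at day 2.

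Galns and Arsb, which act on keratan and dermatan sulfate, moved the other way. Galns measured 36.5, 30.4 and 36.2 CPM in control libraries A, B and C, 31.0, 33.4 and 26.1 CPM at day 2, 24.0, 23.6 and 24.8 CPM at day 6, and 28.4, 27.8 and 28.3 CPM at day 12. Days 6 and 12 lay below all controls. Galns differed from control by -0.22 ± 0.10 at day 2, -0.52 ± 0.10 at day 6 and -0.29 ± 0.10 at day 12 (edgeR adjusted p = 0.107, 3.11e-05 and 0.0102), and the day 12 call ended without control A or control C (edgeR adjusted p up to 0.0568) and on TPM (-0.23). Arsb measured 111, 123 and 120.1 CPM in control libraries A, B and C, 115, 126 and 99.7 CPM at day 2, 87.4, 94.9 and 94.8 CPM at day 6, and 96.6, 89.5 and 85.4 CPM at day 12. Day 2 overlapped the controls and the later days lay below them. Arsb differed from control by -0.07 ± 0.07 at day 2, -0.35 ± 0.07 at day 6 and -0.38 ± 0.07 at day 12 (edgeR adjusted p = 0.549, 8.49e-05 and 2.81e-05). Sgsh, a sulfatase of heparan sulfate, passed at no day, with values of -0.28, -0.19 and -0.21.

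The lipid-degrading enzymes held both the largest fall of the hydrolase group and one of its largest rises. Lipa (ENSMUSG00000024781, chromosome 19, 34492318 to 34527474, minus strand), the acid lipase that frees cholesterol and fatty acids from lipoprotein lipid, measured 112, 106 and 111 CPM in control libraries A, B and C, 101, 106 and 95.6 CPM at day 2, 193, 187 and 178 CPM at day 6, and 209, 193 and 198 CPM at day 12. Day 2 was below the controls, and days 6 and 12 were far above them. Lipa differed from control by -0.13 ± 0.06 at day 2, 0.76 ± 0.06 at day 6 and 0.86 ± 0.06 at day 12 (edgeR adjusted p = 0.134, 2.98e-13 and 8.88e-15). Asah1 (ENSMUSG00000031591, chromosome 8, 41340197 to 41374773, minus strand), the acid ceramidase, measured 314, 304 and 318 CPM in control libraries A, B and C, 261, 269 and 248 CPM at day 2, 207, 226 and 209 CPM at day 6, and 203, 196 and 198 CPM at day 12. It was lower in every treated library than in any control, and day 12 lay below day 6. Asah1 differed from control by -0.27 ± 0.05 at day 2, -0.54 ± 0.05 at day 6 and -0.65 ± 0.05 at day 12 (edgeR adjusted p = 0.000228, 1.64e-10 and 2.21e-12); on TPM the day 6 value was -0.34.

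Psap, the precursor of the saposins that present lipids to these enzymes, was the most abundant member on the TPM scale, at a mean of 1101 TPM in controls. It measured 1672, 1854 and 1793 CPM in control libraries A, B and C, 2282, 2433 and 1997 CPM at day 2, 2229, 2322 and 2155 CPM at day 6, and 2165, 2229 and 2101 CPM at day 12. All treated libraries lay above all controls and did not separate by day. Psap differed from control by 0.33 ± 0.06 at day 2, 0.33 ± 0.06 at day 6 and 0.29 ± 0.06 at day 12 (edgeR adjusted p = 4.19e-05, 1.26e-05 and 0.000106). Ppt1, which removes palmitate from proteins, rose by 0.27 ± 0.06 (edgeR adjusted p = 0.00047) at day 6 and 0.16 ± 0.06 (edgeR adjusted p = 0.0361) at day 12. The day 12 call ended when control A or B, or day 12 B, was left out (edgeR adjusted p up to 0.217), without the filter and on TPM. Cap1 shares exon sequence with Ppt1 on the other strand, with 24751 reads in all against 10488. It had log2 fold changes of 0.29 and 0.37 at days 6 and 12, so the Ppt1 values are uncertain.

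Lamp1 and Lamp2 form most of the sugar-coated inner lining of the lysosomal membrane. Lamp1 measured 876, 881 and 898 CPM in control libraries A, B and C, 937, 883 and 858 CPM at day 2, 979, 1029 and 999.6 CPM at day 6, and 1109.6, 1059 and 1022 CPM at day 12. Day 2 overlapped the controls and the later days lay above them. Lamp1 differed from control by 0.01 ± 0.05 at day 2, 0.18 ± 0.05 at day 6 and 0.26 ± 0.05 at day 12 (edgeR adjusted p = 0.908, 0.00357 and 4.88e-05), small but higher in 6 of 6 later libraries than in any control. Lamp2 measured 692, 651 and 689 CPM in control libraries A, B and C, 622, 617 and 583 CPM at day 2, 744, 771 and 727 CPM at day 6, and 838, 777 and 751 CPM at day 12. It was below the controls at day 2 and above them at days 6 and 12. Lamp2 differed from control by -0.16 ± 0.05 at day 2, 0.14 ± 0.05 at day 6 and 0.22 ± 0.05 at day 12 (edgeR adjusted p = 0.0309, 0.0243 and 0.000735). The day 2 call ended without control A, control C or day 2 C, and the day 6 call without control B, day 6 A or day 6 B (edgeR adjusted p up to 0.116 and 0.103). The day 2 call also ended without the filter, with those 2 groups alone and on TPM.

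Grn encodes progranulin, which lysosomal proteases cut into granulins. It measured 424, 450.0 and 467 CPM in control libraries A, B and C, 514, 528 and 465 CPM at day 2, 697, 712 and 695 CPM at day 6, and 640.3, 604 and 594 CPM at day 12. Day 2 overlapped the controls at its library C, and days 6 and 12 lay above all of them. Grn differed from control by 0.17 ± 0.06 at day 2, 0.65 ± 0.06 at day 6 and 0.46 ± 0.06 at day 12 (edgeR adjusted p = 0.03, 3.36e-12 and 1.16e-08). The day 2 rise ended when control A or B, or day 2 A or B, was left out (edgeR adjusted p up to 0.132), with those 2 groups alone and on TPM. Fam171a2, which shares exon sequence with Grn and holds 5.08% as many reads, had log2 fold changes of 0.45 and 0.15 at days 6 and 12.

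Of the 2 regulators, Tfeb (ENSMUSG00000023990, chromosome 17, 47737030 to 47792419, plus strand), the factor that activates CLEAR-bearing genes, was lower while most hydrolases were higher. Tfeb measured 26.0, 32.5 and 29.6 CPM in control libraries A, B and C, 19.5, 22.4 and 23.3 CPM at day 2, 19.1, 23.1 and 20.3 CPM at day 6, and 21.8, 21.0 and 20.1 CPM at day 12. No treated library reached the lowest control value. Tfeb differed from control by -0.43 ± 0.11 at day 2, -0.49 ± 0.11 at day 6 and -0.48 ± 0.11 at day 12 (edgeR adjusted p = 0.00362, 0.00019 and 0.000244), already at day 2. RNA level does not measure where the protein is. Mcoln1, the lysosomal calcium channel TRPML1, measured 72.0, 75.1 and 83.8 CPM in control libraries A, B and C, 83.5, 88.4 and 76.3 CPM at day 2, 92.9, 85.0 and 100.03 CPM at day 6, and 67.0, 63.0 and 68.1 CPM at day 12. It was above the controls at day 6 and below them at day 12. Mcoln1 differed from control by 0.09 ± 0.08 at day 2, 0.26 ± 0.07 at day 6 and -0.22 ± 0.08 at day 12 (edgeR adjusted p = 0.48, 0.00294 and 0.0128). The day 12 fall ended without control C or day 12 B (edgeR adjusted p up to 0.125) and on TPM (-0.13).

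Summed per length, the balance between the 2 groups shifted. The 34 hydrolase-group genes together held 6409 ± 270 TPM (SD, n = 3) in controls, 6383 ± 196 on day 2, 8311 ± 72.7 on day 6 and 7978 ± 133 on day 12. The 22 V-ATPase subunits held 2882 ± 17.4 TPM in controls, 2695 ± 71.1 at day 2, 2811 ± 36.5 at day 6 and 2782 ± 27.8 at day 12. Their ratio was 2.15 to 2.34 in controls, 2.26 to 2.52 at day 2, 2.94 to 2.97 at day 6 and 2.85 to 2.89 at day 12. The ratio in controls overlapped that of day 2 and lay below every library of days 6 and 12. The protease sum was 2836 ± 102 TPM in controls and 3552 ± 90.6 at day 6, and the glycosidase sum 444 ± 24.2 and 699 ± 15.5, while the V0 sums lay between 1312 and 1507 TPM in all libraries.

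**Figure D4:**
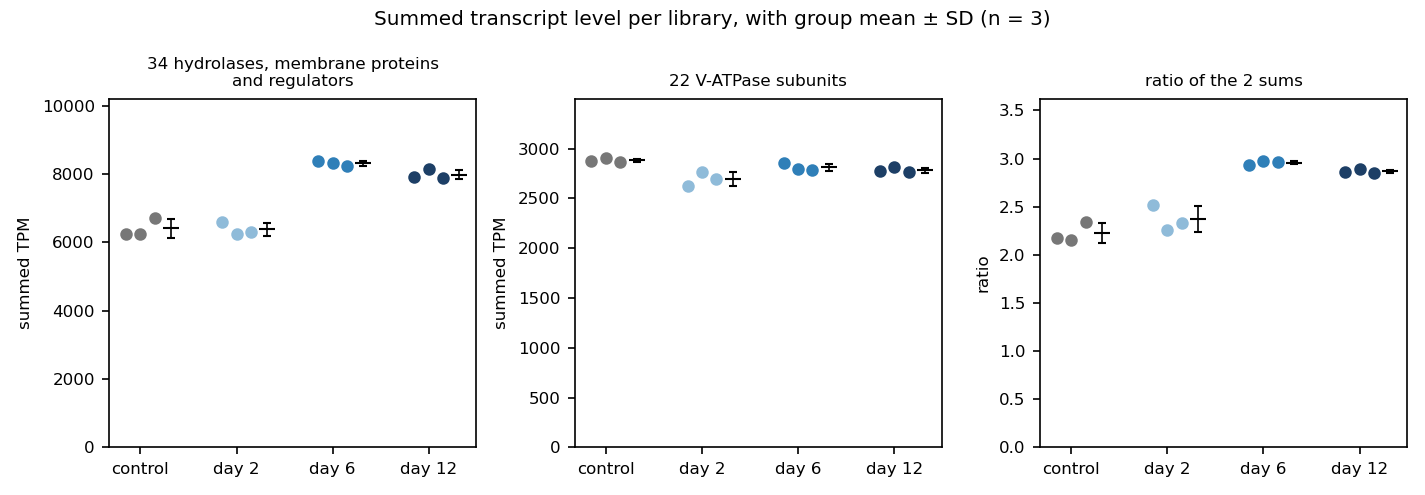
Summed TPM (y axis) of the hydrolase group (left) and of the V-ATPase subunits (middle), and the ratio of the sums (right), in each library of the 4 groups (x axis); bars are mean ± SD (n = 3). The hydrolase-group sums of days 6 and 12 lie at 7882 TPM or above and those of controls and day 2 at 6720 TPM or below, while the V-ATPase sums lie between 2624 and 2902 TPM.

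Most of the change came between days 2 and 6. From day 2 to day 6, 20 members rose (41.7% of those tested) and 8 fell (16.7%), against 22.6% and 22.3% of all genes. On TPM, where the share of all genes was not taken, 21 rose and 2 fell. From day 6 to day 12, 5 rose (10.4%) and 7 fell (14.6%), against 11% and 11%. These shares are near those of all genes and are read as no result about the members. Among members with a mean of at least 5 CPM, Ctsf, Lipa and Gaa had the largest rises from day 2 to day 6, at 1.15 ± 0.13 (edgeR adjusted p = 3e-09), 0.90 ± 0.06 (edgeR adjusted p = 2.36e-14) and 0.83 ± 0.06 (edgeR adjusted p = 1.75e-13). The rare Ctso rose by 1.04, a call that ended without day 6 C (edgeR adjusted p = 0.0577). Ctsl rose there by 0.21 ± 0.07 (edgeR adjusted p = 0.0141), a call that ended without day 2 B or day 6 A (edgeR adjusted p up to 0.0997), with those 2 groups alone and on TPM. The largest falls were those of Atp6v0a4 (-0.37), Atp6v0e2 (-0.37) and Atp6v0b (-0.34); the first ended when library B or C of either day was left out (edgeR adjusted p up to 0.146), in DESeq2, without the filter and on TPM, and the last on TPM.

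After day 6 the calls on members went in both directions, at about the shares of all genes. Ctsb rose further by 0.33 ± 0.05 (edgeR adjusted p = 1.43e-05), Neu1 by 0.25 ± 0.06 (edgeR adjusted p = 0.00179), and Atp6v0e by 0.23 ± 0.07 (edgeR adjusted p = 0.00965). Mcoln1 fell by -0.49 ± 0.07 (edgeR adjusted p = 6.51e-06), Man2b1 by -0.31 ± 0.07 (edgeR adjusted p = 0.000789) and Atp6v0a4 by -0.63 ± 0.15 (edgeR adjusted p = 0.00284). Gaa, Arsa, Grn and Atp6v0a1 also fell, at -0.28, -0.31, -0.19 and -0.16, and Hexa and the rare Ctso rose, at 0.20 and 1.14. The Atp6v0a1 call ended when library B or C of either day was left out (edgeR adjusted p up to 0.192) and without the filter, and the Hexa call without day 6 B (edgeR adjusted p = 0.0861) and on TPM. The Atp6v0e call ended without day 6 C or day 12 B, and the Grn call without day 12 C (edgeR adjusted p up to 0.0545 and 0.0587). On TPM the Man2b1, Atp6v0e and Atp6v0a4 calls of this interval ended.

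Other genes of the pathway, from lists drawn up beside the members, were read in the same fit, and their counts stand against 26.7% higher and 27.6% lower of all tested genes at day 6 and 26.1% and 26.6% at day 12. Of 27 other lysosomal enzymes and activators, 12 rose and 2 fell at day 6, and 12 rose and 4 fell at day 12. Manba, the beta-mannosidase, went against that direction at -0.91, -1.32 and -1.36 at days 2, 6 and 12, whereas the asparagine endopeptidase Lgmn rose by 0.56 and 0.53 and the heparan acetyltransferase Hgsnat by 0.39 and 0.65. Of 25 membrane proteins and transporters, 14 rose and 4 fell at both days. Scarb2, the receptor that carries glucocerebrosidase to the lysosome, rose by 0.38, 1.07 and 1.38, while Laptm4b fell by 0.43, 1.15 and 1.12 and Cd164 by 0.33, 0.68 and 0.60.

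Of 13 accessory and assembly factors of the V-ATPase, 3 rose and 5 fell at day 6, and 4 rose and 5 fell at day 12. These are 23.1% and 38.5% at day 6 and 30.8% and 38.5% at day 12, which with 13 genes is read as no result about the list. Rogdi, a part of the complex that reassembles V1 with V0, fell by 0.72, 1.23 and 1.43, whereas Oxr1, a V-ATPase-binding protein, rose by 0.23, 1.10 and 0.99 and Atp6ap2, the prorenin receptor, by 0.59 and 0.52 at days 6 and 12. The mannose 6-phosphate sorting genes, which bring hydrolases to the lysosome, gave 3 higher and 4 lower of 13 at day 6, 23.1% and 30.8%, about the shares of all genes. At day 12 they gave 5 higher and 3 lower, 38.5% and 23.1%, which with 13 genes is also read as no result about the list. Among these genes Gga2 was at 0.39 at day 6 and the adaptor subunits Ap1s1 and Ap1b1 at -0.50 and -0.36. Of 24 genes of the TFEB family and mTORC1 at the lysosome, 10 rose and 2 fell at day 6 and 11 rose and 2 fell at day 12. Rragd rose by 0.76 and 0.67 and Flcn, which acts on the Rag GTPases, by 0.66 and 0.30, while Ywhaz, a 14-3-3 protein, fell by 0.39 and 0.35. Tfe3, a relative of Tfeb that was added after its values were seen, rose by 0.43 and 0.33.

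Autophagy delivers cargo to lysosomes, and 21 of its 35 listed genes rose and 4 fell at day 6, with 18 and 5 at day 12. The ubiquitin-like Gabarapl1 rose by 1.33 and 0.96, the receptor Sqstm1 by 0.91 and 0.76 and the fusion protein Vamp8 by 0.91 and 0.96. Of 3 tested cystatins, which inhibit cysteine cathepsins, Cst3 rose by 0.46 and 0.69 and Cstb fell by 0.31 at day 6 alone. The 3 genes outside the members whose level followed the members' mean most closely over the 12 libraries were Igf2bp2 (Pearson r = 0.94), Arhgap20 (0.94) and Nr1d1 (0.93), given as a description.

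**Figure D5:**
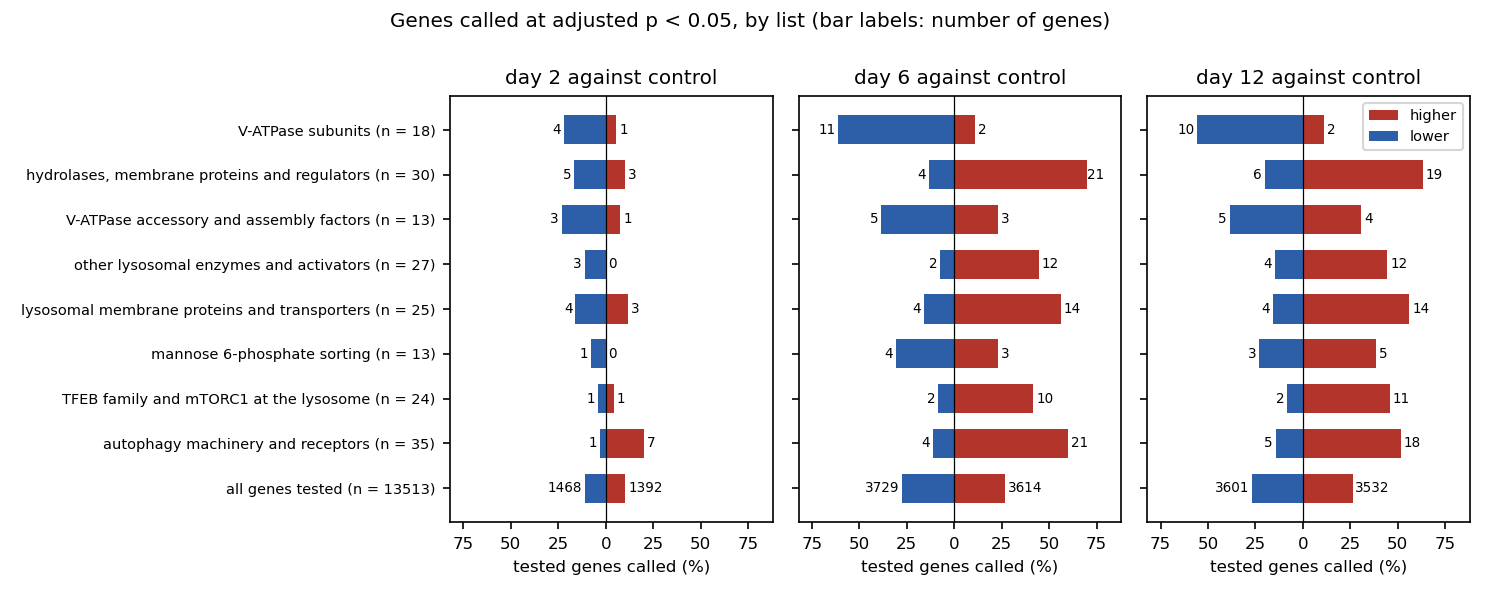
Percent of tested genes called higher (red, right) or lower (blue, left) than control at adjusted p below 0.05 (x axis) for the members, 6 pathway lists and all 13513 tested genes (y axis), at days 2, 6 and 12; bar labels are numbers of genes. The hydrolase group reaches 70% higher at day 6 and the V-ATPase subunits 61.1% lower, where all genes stand at 26.7% and 27.6%.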

How the data were processed

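RNA from 12 libraries of the PT-22 line was analysed, 3 in each of 4 groups set by the labels. The authors deposited expected counts per gene. The submitters' processing notes name the tools RSEM 1.3.3, STAR 2.7.8a, cutadapt 2.3 and FastQC 0.11.8 and the build GRCm38. The deposited TPM values were scaled by the authors to transcript length and library. The annotation release, strand use and filters are not given in the sources used here.

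The counts, deposited as whole numbers, were tested in edgeR 4.0.16 (R 4.3.3): TMM factors, filterByExpr by group, a robust quasi-likelihood fit of 4 groups with 8 residual degrees of freedom, and Benjamini-Hochberg adjustment over 13513 genes at 0.05. The script was tested on simulated data. CPM values use TMM-scaled totals, and standard errors are the log2 fold change divided by the square root of F. Alternatives were DESeq2 1.42.0, other scalings and filters, those 2 groups alone, limma 3.58.1 on log2(TPM) with added constants, a replicate block, and each library left out. Members and pathway lists were chosen with earlier results of these data known.

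Values in every library are given for the 6 largest called rises and falls at each day against control and the 3 largest between treated days, among members with a mean of at least 5 CPM, for 10 further members set by name, and for some others by their range. Of each pathway list the 3 genes with the smallest p over all groups were named; Tfe3 was added after its values were seen. Gene positions are from GENCODE M21 on GRCm38. Promoter windows are from RefSeq, GRCm38.p6.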

Additional observations from a re-analysis of the deposited data

Results flagged for a closer look

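In 4 genes the calls against control had opposite signs at successive treated days. The difference between the days was tested, the change of sign was not, and the comparisons with control share the 3 control libraries. Neu1 was at -0.20 against control at day 2 and 0.30 at day 6, and day 6 against day 2 differed by 0.50 (edgeR adjusted p = 2.85e-08). Lamp2 was at -0.16 and 0.14, with a difference of 0.30 (edgeR adjusted p = 2.15e-05). Ctsb was at -0.17 and 0.32, with a difference of 0.50 (edgeR adjusted p = 2.46e-09). Mcoln1 was at 0.26 against control at day 6 and -0.22 at day 12, and day 12 against day 6 differed by -0.49 (edgeR adjusted p = 6.51e-06). In each gene a call against control was lost when 1 library was left out. The highest edgeR adjusted p was then 0.091 for Neu1 at day 2 (without control C), 0.116 for Lamp2 at day 2 (without control C) and 0.103 at day 6 (without control B), 0.118 for Ctsb at day 2 (without day 2 C) and 0.125 for Mcoln1 at day 12 (without control C). Other libraries that ended these calls were day 2 A and C for Neu1, control A and day 2 C for Lamp2 at day 2, day 6 A and B for Lamp2 at day 6, control B and C for Ctsb, and day 12 B for Mcoln1.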

How the results depend on the processing

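Of 128 calls on members in the 5 comparisons, 101 held when each library was left out in turn, 27 were lost without at least 1, and 116 held under every other setting on counts. The cause of the differences between counts and TPM was not tested. With limma on log2(TPM + 1), log2(TPM + 0.1) and log2(TPM + 1) without the filter, members higher at day 2 numbered 2, 2 and 2 and lower 5, 5 and 4, lower at day 6 7, 7 and 5, and lower at day 12 10, 10 and 10. The same settings gave 2, 2 and 2 lower for day 6 against day 2 and 3, 2 and 2 higher for day 12 against day 6. Atp6v0a1 at day 2 against control was 0.30 on counts and -0.038, -0.039 and -0.038 on these settings. Asking also for a 1.5-fold change left 0 higher and 0 lower at day 2, 8 and 3 at day 6, 6 and 4 at day 12, 5 and 0 for day 6 against day 2, and 1 and 1 for day 12 against day 6. For the TPM settings and for this one, the share of all genes called was not taken. The replicate letters only share a name: 1 of 18 same-letter pairs correlated above 0.1, and 5 of 12 libraries correlated best with their own letter. With the replicate block, 4 members were higher and 10 lower at day 2, 23 and 15 at day 6, 21 and 16 at day 12, 21 and 11 for day 6 against day 2, and 6 and 7 for day 12 against day 6. Depth limits Ctso, Atp6v1c2 and Atp6v1g2, which held at most 58, 15 and 25 reads in a library.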
